A study of Mus musculus with 7 samples.

Results

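The desmosome genes described here are 10 genes that encode the main desmosomal proteins of mouse epidermis. They are the desmocollins Dsc1, Dsc2 and Dsc3, the desmogleins Dsg1a, Dsg2 and Dsg3, and the plaque proteins Jup, Pkp1, Pkp3 and Dsp. They were chosen by name, with the difference between the treatments for Dsc2 and Dsg2 already known, so their own differences between treatments are given as a description, without p-values. Where the text says which of them passed the threshold in the fit of all genes, this describes the choice and is no independent test. All 10 were found among the 55450 genes of the count table, and all 10 were among the 17959 genes with enough counts to be tested. A gene that is high in a single group can pass such a filter through that group alone.

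Bulk RNA sequencing was performed on dorsal skin of wild type male C57BL/6 mice aged 24 months. Hair was clipped and removed with a depilatory lotion, the skin was cleaned with 70% ethanol, and either 5 µM ABT-263 in DMSO or DMSO alone was applied under a semi-occlusive film for 5 days. ABT-263 (navitoclax) is an inhibitor of the anti-apoptotic Bcl-2 family proteins that is used to kill senescent cells. There were 4 DMSO-treated mice (480 to 483) and 3 ABT-263-treated mice (476 to 478), each a separate animal, and all of them were depilated and dressed. Whole skin was homogenized, so epidermis, dermis, hair follicles and underlying muscle contributed RNA together, and no young or untreated skin was sequenced here.

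Desmosomes are adhesive junctions that fasten neighboring keratinocytes to each other and anchor their keratin filaments. Desmocollins and desmogleins are calcium-dependent cadherins that meet in the space between the cells. Plakoglobin (Jup) and the plakophilins bind the cadherin tails, and desmoplakin (Dsp) ties this plaque to keratin. In stratified epidermis Dsg3 and Dsc3 are typical of the lower layers and Dsg1 and Dsc1 of the upper layers, while Dsc2 and Dsg2 are the forms found in simple epithelia and heart.

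The 6 cadherin genes lie in a cluster on chromosome 18 (GRCm38). Dsc3 (19960930 to 20002351), Dsc2 (20030633 to 20059554) and Dsc1 (20084184 to 20114871) are on the minus strand. Dsg1a (20310811 to 20343350), Dsg3 (20510274 to 20547459) and Dsg2 (20558074 to 20604521) are on the plus strand. The plaque genes are on other chromosomes. Dsp is at chromosome 13, 38151294 to 38198577, plus strand, Jup at chromosome 11, 100368958 to 100397763, minus strand, Pkp1 at chromosome 1, 135871395 to 135919207, minus strand, and Pkp3 at chromosome 7, 141078218 to 141090510, plus strand. Counts cover the exons of each gene. In the annotation, 3.99% of the exon bases of Dsg2 and 5.17% of those of Dsp overlapped a transcript on the opposite strand, and 35% of the 50-base stretches of Dsg1a were shared with another gene, mostly Dsg1b. For the other 9 genes this share was at most 0.733%. Since only uniquely aligned pairs were counted, the level of Dsg1a is uncertain and may be understated.

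Read totals were 20344364 to 26824123 pairs in the DMSO mice and 27325963 to 43562330 in the ABT-263 mice, and no pair of libraries agreed within sampling noise. Levels are given as counts scaled to the library size (CPM, with TMM factors), or the same per kilobase of exon (RPKM) where genes are compared with each other. The keratinocyte transcripts differed widely within each group. The summed CPM of 7 basal keratinocyte markers was 18201 to 31227 after DMSO and 13873 to 35946 after ABT-263, that of 7 suprabasal markers 12777 to 38165 and 9449 to 27141, and that of 8 granular layer markers 5963 to 24939 and 3115 to 14069. The summed neutrophil, macrophage, endothelial and fibroblast markers were higher in every ABT-263 mouse than in any DMSO mouse. The summed CPM of 10 neutrophil markers was 122 to 1939 after DMSO and 5329 to 9736 after ABT-263, that of 10 macrophage markers 451 to 1325 and 1521 to 4583, that of 8 endothelial markers 169 to 371 and 520 to 685, and that of 7 fibroblast markers 3856 to 5405 and 6109 to 8675. The 9 skeletal muscle markers summed to 35305 to 71490 and 28071 to 37363, and these ranges overlapped, as did those of the sebaceous gland markers. Most of the neutrophil sum was S100a8 and S100a9, at 1714 to 2912 and 3355 to 5016 CPM after ABT-263. Retnlg measured 232.2, 2.09 and 3.03 CPM in ABT-263 mice 476, 477 and 478, and Mmp8 59.1, 0.807 and 1.29 CPM. Ly6g and Ngp were also far higher in mouse 476 than in 477 or 478. Of the 8 neutrophil markers tested, 7 were higher in every ABT-263 mouse than in any DMSO mouse, as were 18.7% of all genes tested. Of the neutrophil markers, Retnlg (0.457 CPM), Ly6g (0.0940 CPM) and Ngp (0.0565 CPM) were near 0 on average after DMSO. Ly6g had no counts in DMSO mice 480 and 482, Ngp had none in DMSO mice 480 and 481 and ABT-263 mouse 478, and both were under the filter.

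After ABT-263, the desmocollins Dsc1 and Dsc2 and the desmoglein Dsg3 were higher, the other simple-epithelium cadherin Dsg2 was lower on average, and the 4 plaque genes stayed within the range of the DMSO mice or spread around it. In the fit of all genes, 3 of the 10 genes (Dsc1, Dsc2 and Dsg3) passed an adjusted p of 0.05 as higher and 0 as lower, where 12.4% of all genes tested passed as higher, 11.7% as lower and 24.2% in either direction (edgeR's quasi-likelihood test with Benjamini-Hochberg adjustment). At an unadjusted p of 0.05 the counts were 4 higher and 0 lower, and DESeq2's Wald test called 4 higher and 0 lower, where it called 16.7% of all genes higher and 16% lower. For unadjusted counts, here and in the lists below, the share over all genes is not given, so nothing is read from them. Without 1 mouse at a time, Dsc1 passed only when DMSO mouse 480 was left out, Dsg3 did not pass without DMSO mouse 482 or 483, and the count of genes past the threshold was 1 to 3. Over all genes tested, 850 passed as higher without mouse 482, 988 without 483 and 2065 without 480, against 2234 with all mice. The choice of the genes rested on this contrast, so nothing is read from these counts. The median log2 fold change was 0.29 over the 10 genes and 0.00 over all genes tested. The median of the 10 genes turned to -0.0198 without ABT-263 mouse 477 and was 0.549 without ABT-263 mouse 476. In bulk skin, a change in the number of cells of a type and a change in RNA per cell cannot be told apart.

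**Figure D1:**
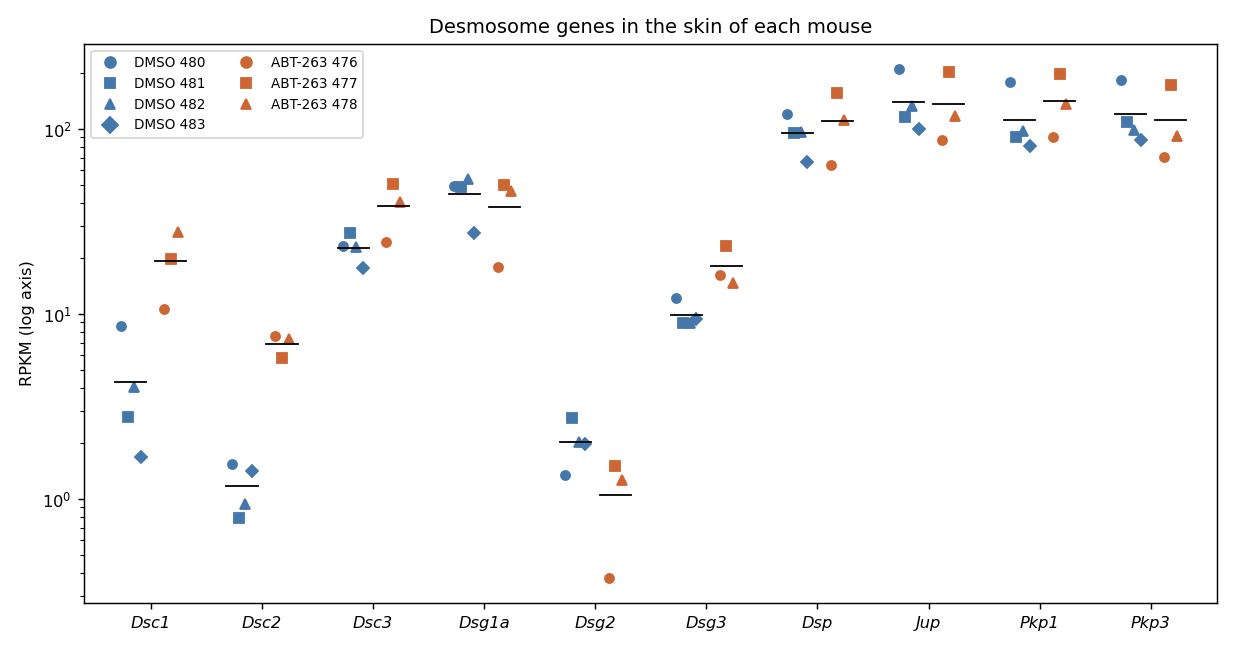
Level of each desmosome gene in each mouse, in RPKM on a log axis, with blue symbols for DMSO mice, orange symbols for ABT-263 mice and black lines for group means. Dsc2 and Dsc1 sit higher in all ABT-263 mice than in any DMSO mouse, while the plaque genes Dsp, Jup, Pkp1 and Pkp3 overlap at the top of the plot.

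Dsc2, the desmocollin that simple epithelia and heart share with skin, had the largest difference among the 10 genes. It measured 8.18, 4.17, 4.93 and 7.52 CPM in DMSO mice 480, 481, 482 and 483, and 40.3, 30.6 and 38.8 CPM in ABT-263 mice 476, 477 and 478. All ABT-263 mice were above all DMSO mice, as were 18.7% of the genes tested, and the lowest ABT-263 value exceeded the highest DMSO value by a wide margin. The means were 6.20 ± 1.95 CPM (SD, n = 4) and 36.5 ± 5.20 CPM (SD, n = 3). The fitted difference was 2.56 on the log2 scale (SE 0.25), or 5.88-fold. The counts behind these values were 96 to 200 read pairs after DMSO and 1126 to 1804 after ABT-263.

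Dsc1, the desmocollin of the upper epidermal layers, measured 43.5, 14.1, 20.2 and 8.50 CPM in the DMSO mice and 54.0, 99.9 and 140.3 CPM in the ABT-263 mice. The groups did not overlap, but DMSO mouse 480 came close to ABT-263 mouse 476, and the DMSO mice differed more among themselves than for any other of the 10 genes. The log2 fold change was 2.18 (SE 0.56), or 4.54-fold. Dsc3, the desmocollin of the lower layers and the most abundant of the family, measured 126.5, 147.9, 124.3 and 95.3 CPM after DMSO and 131.8, 273.1 and 218.1 CPM after ABT-263. The groups overlapped, with ABT-263 mouse 476 inside the DMSO range and the other two above it. Its log2 fold change was 0.75 (SE 0.25), or 1.68-fold.

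Together the 3 desmocollins summed to 28.3 ± 5.55 RPKM after DMSO (SD, n = 4) and 64.8 ± 19.1 RPKM after ABT-263 (SD, n = 3), and the groups did not overlap. The make-up of this sum differed as well. Dsc2 made up 4.62%, 2.55%, 3.34% and 6.87% of it in the DMSO mice and 17.9%, 7.61% and 9.73% in the ABT-263 mice. Every ABT-263 share was above every DMSO share, with DMSO mouse 483 nearest to ABT-263 mouse 477. The share of Dsc1 averaged 14.3% after DMSO and 29.3% after ABT-263, with DMSO mouse 480 (25.7%) inside the ABT-263 range, of which the lowest was 25.04% and the highest 36.8%. The share of Dsc3 was 69.7% to 88.4% after DMSO and 53.5% to 66.4% after ABT-263, lower in every ABT-263 mouse. Dsc1 and Dsc2 did not keep a fixed ratio, which was 1.18 to 5.56 after DMSO and 1.40 to 3.79 after ABT-263 in RPKM. On the log2 scale, the difference between the treatments for Dsc2 exceeded the mean of those for Dsc1 and Dsc3 by 1.09.

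**Figure D2:**
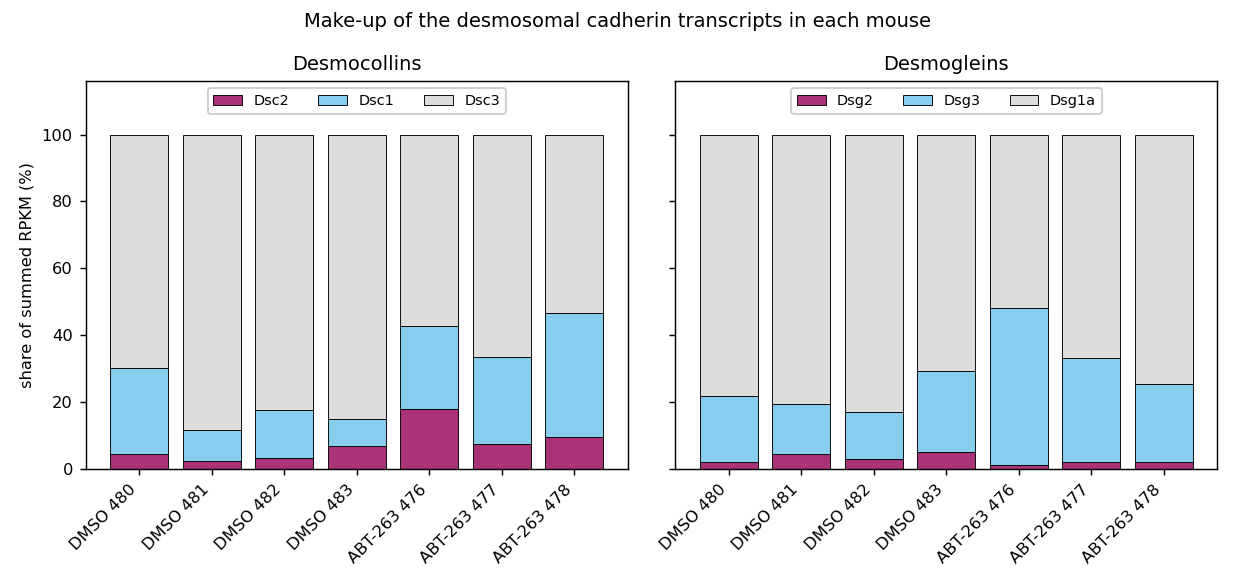
Share of each gene in the summed RPKM of the 3 desmocollins (left) and the 3 desmogleins (right) in each mouse, in percent. The dark Dsc2 segment is taller in every ABT-263 mouse (7.61% to 17.9%) than in any DMSO mouse (2.55% to 6.87%), and the dark Dsg2 segment is shorter (1.09% to 2.02% against 2.15% to 5.10%).

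Dsg2, the desmoglein of simple epithelia, went the other way from Dsc2. It measured 11.1, 22.7, 16.9 and 16.3 CPM in the DMSO mice and 3.11, 12.4 and 10.4 CPM in the ABT-263 mice. ABT-263 mice 476 and 478 were below all DMSO mice, but mouse 477 was above DMSO mouse 480. The log2 fold change was -0.95 (SE 0.45), or 0.517-fold, and it did not pass the threshold. The sequencing counts were 272 to 539 read pairs after DMSO and 87 to 492 after ABT-263.

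Dsg1a, an adhesive desmoglein of the upper layers and in mouse a member of a set of near-identical genes, measured 278.5, 274.7, 306.1 and 155.2 CPM after DMSO and 101.5, 284.1 and 263.7 CPM after ABT-263. The groups overlapped, and the lowest mouse of each group (483 and 476) stood far below the rest of its group. The log2 fold change was -0.23 (SE 0.37). Dsg3, the desmoglein of the lower layers and the pemphigus vulgaris antigen, measured 85.6, 62.1, 62.6 and 65.4 CPM after DMSO and 113.3, 162.5 and 102.3 CPM after ABT-263. The groups did not overlap, DMSO mouse 480 stood above the other three, and the log2 fold change was 0.87 (SE 0.20), or 1.83-fold.

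The summed desmogleins did not separate the groups, at 56.5 ± 12.1 RPKM after DMSO (SD, n = 4) and 57.2 ± 20.6 RPKM after ABT-263 (SD, n = 3). Within the sum, Dsg2 made up 2.15%, 4.58%, 3.15% and 5.10% in the DMSO mice and 1.09%, 2.01% and 2.02% in the ABT-263 mice. Every ABT-263 share was below every DMSO share, but DMSO mouse 480 was only just above ABT-263 mice 477 and 478. Dsg1a averaged 78.1% after DMSO and 64.4% after ABT-263, and Dsg3 18.1% and 33.9%, with overlap for both. The ratio of Dsg2 to Dsg3 in RPKM was 0.110 to 0.309 after DMSO and 0.0232 to 0.0859 after ABT-263, without overlap, while the ratio of Dsg2 to Dsg1a overlapped. On the log2 scale, the difference for Dsg2 was 1.27 below the mean of those for Dsg1a and Dsg3 (-1.27).

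The ratio of Dsc2 to Dsg2 put the pair of simple-epithelium cadherins on a single scale. In RPKM it was 1.15, 0.288, 0.457 and 0.722 in the DMSO mice and 20.3, 3.87 and 5.83 in the ABT-263 mice. The ranges did not overlap, and the highest ratio was in ABT-263 mouse 476, which also had the lowest Dsg2 of all mice. These genes were chosen for this contrast, so the ratio is a description of the difference that chose them.

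The RefSeq promoter table (GRCm38.p6) held 2 of the 10 genes, the plaque genes Dsp and Jup, and the promoters shown are those 2. The 250 bases upstream of each start site are written 5′ to 3′ on the strand of the gene, chr13:38151044-38151293 for Dsp and chr11:100397791-100398040 for Jup, with GC boxes and CCAAT boxes in capitals.
Dsp: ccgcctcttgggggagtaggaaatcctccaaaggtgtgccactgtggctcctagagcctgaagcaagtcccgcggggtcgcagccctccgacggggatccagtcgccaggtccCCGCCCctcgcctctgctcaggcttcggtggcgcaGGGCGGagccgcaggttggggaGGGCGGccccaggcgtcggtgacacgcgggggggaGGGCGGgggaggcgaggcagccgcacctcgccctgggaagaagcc
Jup: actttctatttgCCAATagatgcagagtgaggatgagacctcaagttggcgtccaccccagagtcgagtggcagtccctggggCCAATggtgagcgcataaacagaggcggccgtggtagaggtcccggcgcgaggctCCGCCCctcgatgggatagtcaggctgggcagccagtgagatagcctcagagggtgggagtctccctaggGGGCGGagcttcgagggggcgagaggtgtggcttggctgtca
The GC box (GGGCGG on either strand) was present 4 times upstream of Dsp and 2 times upstream of Jup, and CCAAT (either strand) 2 times upstream of Jup. Across all 32851 promoters of the table, 32.7% held GGGCGG and 33.8% held CCAAT in the same window. Neither window held TGANTCA, the AP-1 motif (6.75% of all promoters), TATAAA (12.4%) or AACNGGTT, a grainyhead motif (1.79%). The motifs did not overlap each other in these windows.

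Jup encodes plakoglobin, the plaque protein shared with adherens junctions. It measured 1351.8, 743.2, 854.6 and 646.8 CPM after DMSO and 563.8, 1302.5 and 759.7 CPM after ABT-263. The groups overlapped almost fully, and the log2 fold change was -0.04 (SE 0.35). Dsp, which encodes desmoplakin, the link to keratin, measured 1166.5, 919.8, 927.7 and 644.6 CPM after DMSO and 618.6, 1508.5 and 1084.8 CPM after ABT-263. Here too the groups overlapped, with ABT-263 mouse 477 highest and 476 lowest of all 7 mice, and the log2 fold change was 0.23 (SE 0.32).

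The plakophilins strengthen the plaque and cluster the cadherins. Pkp1, the plakophilin enriched in the suprabasal layers, measured 896.5, 453.7, 488.6 and 407.6 CPM after DMSO and 456.5, 992.0 and 690.0 CPM after ABT-263. Pkp3, found through all living layers, measured 667.8, 396.2, 358.1 and 315.4 CPM after DMSO and 254.9, 629.1 and 333.4 CPM after ABT-263. Neither separated the groups, with log2 fold changes of 0.34 (SE 0.35) for Pkp1 and -0.10 (SE 0.37) for Pkp3. Their balance did, since the share of Pkp1 in the summed RPKM of Pkp1 and Pkp3 was 45.2% to 49.5% in the DMSO mice and 53.2% to 59.8% in the ABT-263 mice. The means were 48.0% ± 1.97 (SD, n = 4) and 56.4% ± 3.34 (SD, n = 3).

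**Figure D3:**
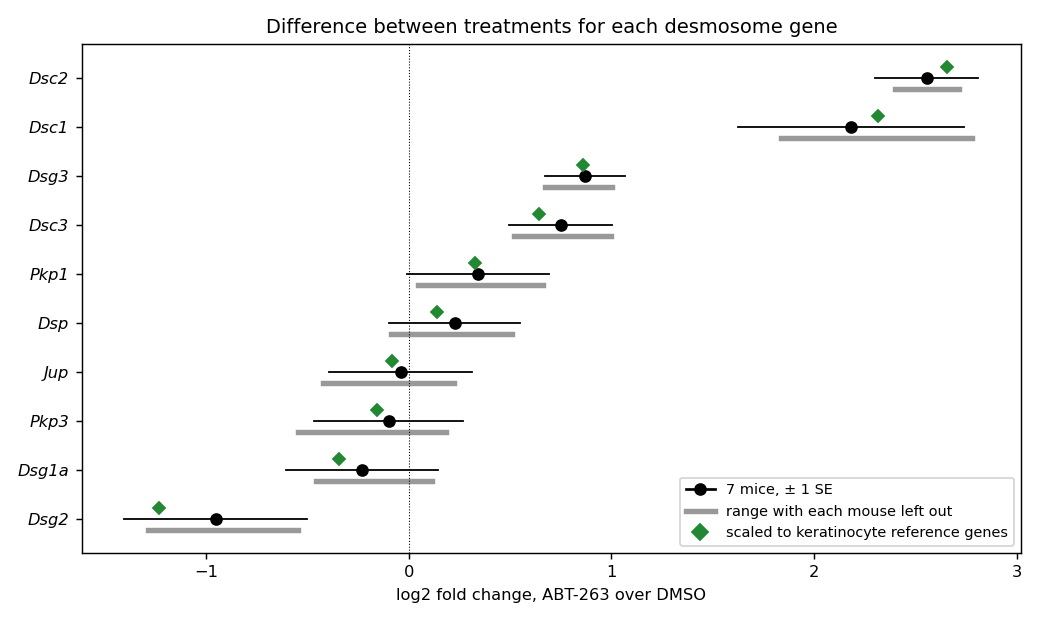
Log2 fold change of each desmosome gene, ABT-263 over DMSO, with black points and bars for all 7 mice ± 1 SE, gray bars for the range when each mouse was left out, and green diamonds for scaling to 6 keratinocyte reference genes. Dsc2 lies at 2.56 and Dsc1 at 2.18, Dsg2 lies at -0.95, and the gray bars of Dsg1a, Dsp, Jup and Pkp3 cross 0.

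Ordered by RPKM in DMSO skin, the plaque genes came first, with Jup at 139.7, Pkp3 at 120.1, Pkp1 at 111.8 and Dsp at 94.7. The ranges of neighbors in this order overlapped. Dsg1a at 44.6 and Dsc3 at 22.9 followed, apart from the plaque genes and overlapping only slightly with each other. Dsg3 at 9.88 stood apart from its neighbors on both sides, and Dsc1 at 4.28, Dsg2 at 2.03 and Dsc2 at 1.17 ended the order with overlapping ranges.

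After ABT-263 the plaque genes again led in RPKM, with Pkp1 at 141.9, Jup at 136.0, Pkp3 at 112.2 and Dsp at 110.8, and they overlapped each other. The next 4 genes overlapped in a chain, with Dsc3 at 38.4, Dsg1a at 38.1, Dsc1 at 19.4 and Dsg3 at 18.1. Dsc2 at 6.92 and then Dsg2 at 1.05 came last, each apart from its neighbor. By mean level Dsc2 was last of the 10 genes in DMSO skin, and it was above Dsg2 in every ABT-263 mouse. The 3 desmogleins and 3 desmocollins together reached 84.8 ± 17.1 RPKM after DMSO (SD, n = 4) and 122 ± 39.3 RPKM after ABT-263 (SD, n = 3), against 466 ± 157 and 501 ± 212 RPKM for the 4 plaque genes, and both sums overlapped between the groups.

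The mice of each group differed from each other in the same way for most of the genes. DMSO mouse 480 was the highest DMSO mouse for 7 of the 10 genes and mouse 483 the lowest for 7. Among the ABT-263 mice, 477 was highest for 8 of 10 and 476 lowest for 8. The most parallel pair was Jup and Pkp3, whose log2 CPM profiles, each centered on its mean over the 7 mice, differed by a root mean square of 0.11. The least parallel pair over the 7 mice was Dsc2 and Dsg2, at 2.03. This value includes the difference between the treatments, for which both genes were chosen. Within the groups, the closest pair was Jup and Pkp1, at 0.0905, and the farthest was Dsc1 and Dsg2, at 0.909.

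The geometric mean of 6 keratinocyte reference genes (Krt5, Krt14, Krt1, Krt10, Cdh1 and Trp63) varied in a like way. It was 2754, 1536, 1868 and 1330 CPM in the DMSO mice and 1188, 2735 and 1850 CPM in the ABT-263 mice, highest in 480 and 477 and lowest in 483 and 476. Divided by it, Jup was nearly level, at 457 to 491 CPM per 1000 CPM of the reference after DMSO and 411 to 476 after ABT-263. On this relative scale Pkp1 separated the groups (262 to 326 and 363 to 384), as did Dsc3 (45.9 to 96.3 and 99.9 to 117.9), Dsg3 (31.1 to 49.2 and 55.3 to 95.4), Dsc1 (6.39 to 15.8 and 36.5 to 75.8) and Dsc2 (2.64 to 5.65 and 11.2 to 33.9). Dsg2 still overlapped, at 4.04 to 14.8 after DMSO and 2.62 to 5.63 after ABT-263. The share of all genes that separate on this scale is not given here, so nothing is read from the number of desmosome genes that do. In a fit scaled to these reference genes, the log2 fold change was 2.65 for Dsc2, 2.32 for Dsc1 and 0.86 for Dsg3, and Dsg3 was no longer past the threshold. Over all genes, 1119 passed as higher in that fit, against 2234 in the main fit.

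**Figure D4:**
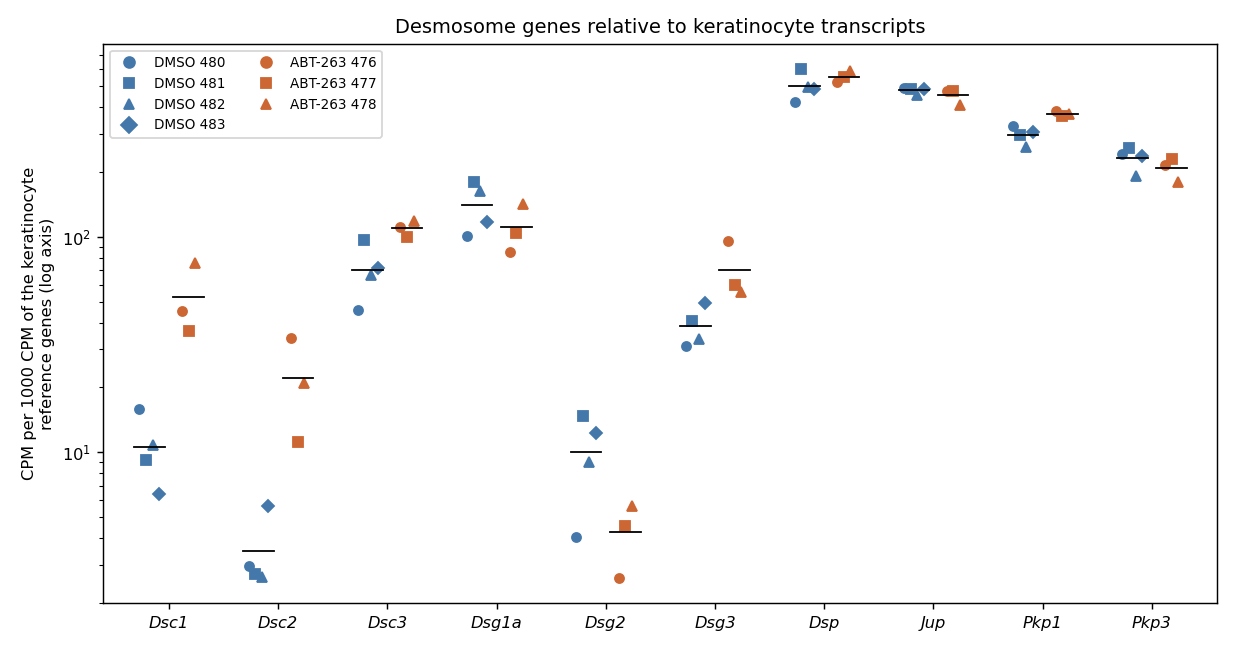
CPM of each desmosome gene per 1000 CPM of the geometric mean of 6 keratinocyte reference genes, on a log axis, by mouse, with black lines for group means. Jup keeps a narrow band (411 to 491 over all 7 mice), while all ABT-263 mice lie above all DMSO mice for Dsc1, Dsc2, Dsc3, Dsg3 and Pkp1.

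Wound keratinocyte transcripts were high in DMSO mouse 480, with a summed CPM of 21636 over 8 markers, against 2757 to 5584 in the other DMSO mice and 11377 to 24991 after ABT-263. None of these 8 markers passed the threshold in edgeR's test, adjusted or unadjusted, or in the Wald test. The same mouse had the DMSO value nearest to the ABT-263 group for Dsc1, Dsc2 and Dsg3. Without it, the log2 fold changes were 2.78 for Dsc1 and 2.72 for Dsc2. Hair follicle markers (13 of 14 matched) were high in DMSO mouse 481, which also had the highest Dsg2, at 3464 CPM against 250 to 324 in the other DMSO mice and 175 to 744 after ABT-263. Of 12 tested, 3 fell, where 11.7% of all genes tested passed as lower. The sum of 8 simple and glandular epithelium markers was 143 to 253 CPM after DMSO and 86.6 to 173 after ABT-263, and 2 of 8 fell, against the same 11.7%. Most of this sum was Epcam, at 111 to 195 CPM after DMSO and 77.6 to 150 CPM after ABT-263, which did not pass (-0.40, SE 0.26). The part of these cell types in the levels of Dsc2 and Dsg2 was not tested.

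The genes most like Dsc2 across the 7 mice were P2ry12, Gng10, Col5a2, Il33 and Lbp, by the root mean square difference of centered log2 CPM profiles (0.22 to 0.33, among 15589 genes with a mean of at least 1 CPM). P2ry12 is a receptor for ADP, Gng10 a G protein subunit, Col5a2 a fibrillar collagen chain, Il33 an alarmin cytokine and Lbp a lipopolysaccharide binding protein. The closest desmosome gene was Dsc1 (0.78), at rank 640. The genes most like Dsg2 were Gm16023, Tcrg-C1, Ackr4, Ptn and Hlf (0.18 to 0.20), and the closest desmosome gene was Dsg1a (0.58), at rank 796. Tcrg-C1 encodes a constant part of the gamma T cell receptor, Ackr4 an atypical chemokine receptor, Ptn a secreted growth factor and Hlf a transcription factor. Those most like Dsg1a were Pou2f3, Dlg2, Il20rb, S1pr5 and 4933431E20Rik (0.0929 to 0.20). Pou2f3, an epidermal transcription factor, measured 58.1, 59.7, 60.7 and 37.4 CPM after DMSO and 19.95, 57.5 and 55.4 CPM after ABT-263, with the same low mice, 483 and 476, as Dsg1a. P2ry12 and Gng10 averaged 0.654 and 0.397 CPM after DMSO and passed the 1 CPM filter only through the ABT-263 mice. Gm16023 and Tcrg-C1 averaged 0.586 and 0.956 CPM after ABT-263, against 1.39 and 1.91 CPM after DMSO, and passed this filter only through the DMSO mice. Gm16023 had 4 read pairs in ABT-263 mouse 476. Likeness in 7 libraries is a description and includes the difference between the groups.

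The remaining desmosome genes formed a list of 8, of which 6 were tested, 0 rose and 1 fell (median log2 fold change 0.17). Over all genes tested, 12.4% passed as higher and 11.7% as lower. At an unadjusted p of 0.05, 1 was higher and 1 lower, and the Wald test called 1 higher and 1 lower. Pkp4, a plakophilin relative also found in adherens junctions, measured 78.0, 96.1, 68.8 and 77.6 CPM after DMSO and 42.3, 64.0 and 47.8 CPM after ABT-263. It was below the DMSO range in every ABT-263 mouse, with a log2 fold change of -0.64 (SE 0.18, adjusted p = 0.0372 by edgeR), and it passed in 1 of the 7 fits that left out a mouse (without ABT-263 mouse 477). Dsg1b, the near-identical neighbor of Dsg1a, measured 26.0, 5.69, 9.70 and 5.63 CPM after DMSO and 24.7, 31.4 and 31.5 CPM after ABT-263. DMSO mouse 480 overlapped the ABT-263 group, and with a log2 fold change of 1.31 (SE 0.53) Dsg1b did not pass in edgeR (adjusted p = 0.108) but did in the Wald test of DESeq2 (adjusted p = 0.0396). Without mouse 480 it passed in edgeR at 2.06. The ratio of Dsg1b to Dsg1a was 0.0297 to 0.134 after DMSO and 0.159 to 0.349 after ABT-263 in RPKM, without overlap. These counts share sequence, with 48.9% of the 50-base stretches of Dsg1b present in another gene. Dsg1c and Dsg4 were under the filter, at no more than 0.801 CPM in any mouse. Perp, the tetraspan protein of desmosomes (0.31, SE 0.32), Pkp2 (0.02, SE 0.23) and the plakins Evpl (-0.12, SE 0.36) and Ppl (0.61, SE 0.34) did not pass.

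Corneodesmosomes are the modified desmosomes of the cornified layer, and kallikrein proteases cut them when skin is shed. Of 15 genes of this group, 1 rose and 0 fell (median log2 fold change 0.20), where 12.4% of all genes tested passed as higher and 11.7% as lower. At an unadjusted p of 0.05, 1 was higher and 1 lower, and the Wald test called 1 higher and 1 lower. The kallikrein Klk10 measured 105, 26.5, 42.8 and 26.2 CPM after DMSO and 195, 190.2 and 171 CPM after ABT-263. Its log2 fold change was 1.89 (SE 0.48, adjusted p = 0.0301 by edgeR). All ABT-263 mice were above DMSO mouse 480, and the call held in 1 of the 7 fits that left out a mouse, the one without mouse 480. In that fit 5 genes of the group passed as higher, as did 2065 of all 17738 genes tested in it. Corneodesmosin (Cdsn, -0.13, SE 0.74), Klk5 (-0.50, SE 0.67) and Klk7 (0.13, SE 0.47), which cut desmosomal cadherins, and their inhibitor Spink5 (-0.76, SE 0.29) did not pass in edgeR. Spink5 passed as lower in the Wald test (adjusted p = 0.0421).

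Of the 15 keratin partners, 0 rose and 4 fell (median log2 fold change -0.23), where 12.4% of all genes tested passed as higher and 11.7% as lower. At an unadjusted p of 0.05, 0 were higher and 7 lower, and the Wald test called 0 higher and 7 lower. The keratins that fell were Krt7 (-1.71, SE 0.28, adjusted p = 0.00826 by edgeR) and Krt18 (-4.35, SE 1.07, adjusted p = 0.0275), keratins of simple epithelia, with Krt77 (-2.97, SE 0.76, adjusted p = 0.0298), a keratin of sweat ducts and epidermis, and Krt15 (-1.45, SE 0.38, adjusted p = 0.0312), a keratin of basal cells and the follicle bulge. Krt18 measured 32.0, 43.1, 1.44 and 11.4 CPM after DMSO and 0.751, 1.51 and 0.945 CPM after ABT-263, so that DMSO mouse 482 overlapped the ABT-263 mice. Krt7 passed in all 7 fits that left out a mouse, Krt18 in 4, and Krt77 and Krt15 in 2 each. Without DMSO mouse 480, 3 keratins passed as higher, as did 2065 of all 17738 genes tested in that fit. With that mouse included, each of the wound keratins Krt6a (1.36, SE 0.86), Krt6b (1.19, SE 0.94) and Krt16 (0.77, SE 0.97) did not pass. The main epidermal keratins Krt5, Krt14, Krt1 and Krt10 were between -0.23 and 0.26 and did not pass.

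Adherens junctions are the actin-linked neighbors of desmosomes. Of 12 genes, 2 rose and 0 fell (median log2 fold change 0.04), where 12.4% of all genes tested passed as higher and 11.7% as lower. At an unadjusted p of 0.05, 4 were higher and 1 lower, and the Wald test called 4 higher and 1 lower. Lima1, an actin-binding protein (0.77, SE 0.13, adjusted p = 0.00871 by edgeR), and Ctnnb1, the beta-catenin gene and close relative of Jup (0.58, SE 0.16, adjusted p = 0.0317), were higher in every ABT-263 mouse. Ctnnb1 measured 229, 281, 219 and 213 CPM after DMSO and 312, 362 and 385 CPM after ABT-263. Lima1 passed in all 7 fits that left out a mouse and Ctnnb1 in 3. The classical cadherins Cdh1 (-0.01, SE 0.19) and Cdh3 (-0.08, SE 0.26) did not pass.

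Hemidesmosomes anchor basal keratinocytes to the basement membrane. Of 8 genes, 2 rose and 0 fell (median log2 fold change 0.16), where 12.4% of all genes tested passed as higher and 11.7% as lower. At an unadjusted p of 0.05, 2 were higher and 1 lower, and the Wald test called 2 higher and 1 lower. The genes that rose encode a laminin chain and an integrin, Lama3 (2.61, SE 0.32, adjusted p = 0.00619 by edgeR) and Itga6 (0.60, SE 0.16, adjusted p = 0.0316). Lama3 measured 6.47, 8.64, 5.34 and 5.38 CPM after DMSO and 61.4, 27.3 and 29.9 CPM after ABT-263, and it passed in all 7 fits that left out a mouse. Itga6 passed in 2. Lamb3 (0.26, SE 0.20), also a laminin chain, and Itgb4 (0.22, SE 0.17), the partner of Itga6, did not pass. The plakin Dst, which encodes BPAG1, was at -0.62 (SE 0.23).

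Of 17 genes that regulate desmosomes, 6 rose and 2 fell (median log2 fold change 0.19), where 12.4% of all genes tested passed as higher and 11.7% as lower. Grhl3, a grainyhead transcription factor of the upper epidermis, measured 17.4, 9.44, 12.2 and 4.40 CPM after DMSO and 50.2, 45.2 and 53.5 CPM after ABT-263 (log2 fold change 2.19, SE 0.39, adjusted p = 0.0109 by edgeR). Its relative Grhl1, a regulator of Dsg1, did not pass (0.27, SE 0.29). The calcium pumps Atp2c1 (0.67, SE 0.11, adjusted p = 0.00869), mutated in Hailey-Hailey disease, and Atp2a2 (0.89, SE 0.17, adjusted p = 0.0125), mutated in Darier disease, both rose, and so did the sheddases Adam10 (0.72, SE 0.15, adjusted p = 0.0158) and Adam17 (0.76, SE 0.18, adjusted p = 0.0233) and the receptor Egfr (0.54, SE 0.13, adjusted p = 0.0235).

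The transcription factors Gata3 and Klf5 fell. Gata3 measured 317, 491, 423 and 386 CPM after DMSO and 61.5, 137 and 98.8 CPM after ABT-263 (-2.03, SE 0.29, adjusted p = 0.00676 by edgeR). Klf5 measured 286, 255, 299 and 248 CPM after DMSO and 92.5, 154 and 96.2 CPM after ABT-263 (-1.25, SE 0.21, adjusted p = 0.00877). For both genes all ABT-263 mice were below all DMSO mice. Gata3, Klf5, Grhl3, Atp2a2, Atp2c1 and Adam10 passed in all 7 fits that left out a mouse, and Egfr and Adam17 in 3 each. Trp63, the master factor of stratified epithelia, was at -0.13 (SE 0.15), and Prkca, the kinase that loosens desmosomes in wounds, at -0.19 (SE 0.31), and neither passed.

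**Figure D5:**
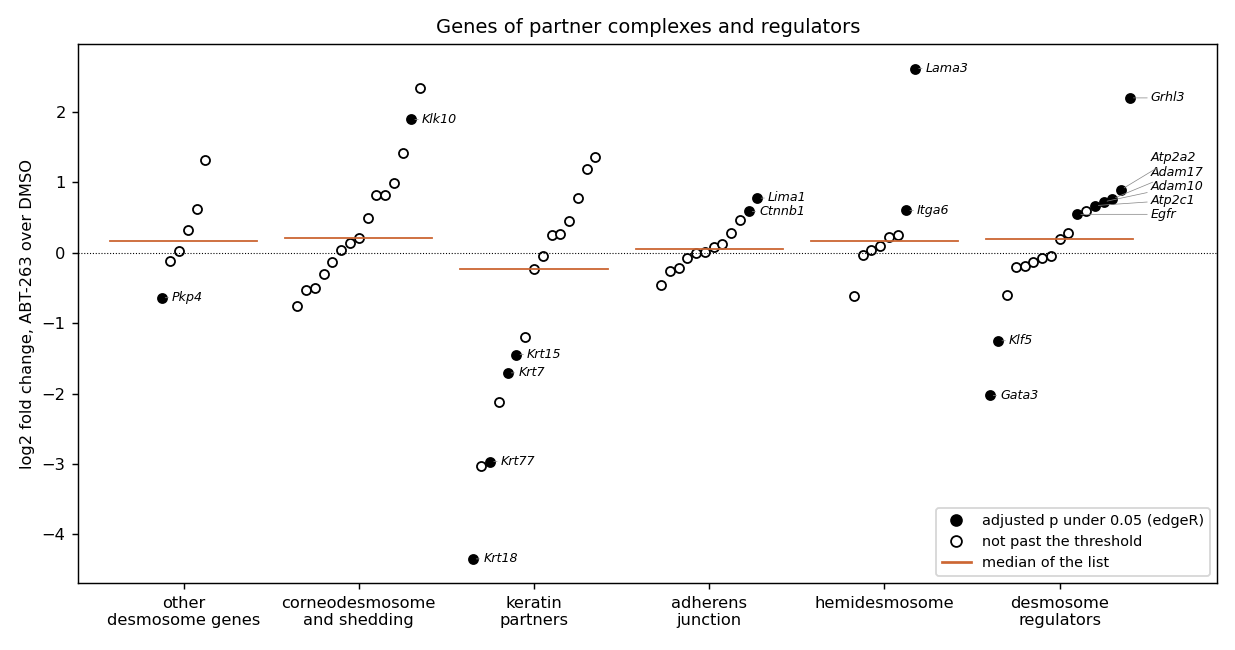
Log2 fold change, ABT-263 over DMSO, of each tested gene in 6 lists of partner complexes and regulators, with filled points for genes past an adjusted p of 0.05 in edgeR and orange lines for the median of each list. The list medians run from -0.23 (keratin partners) to 0.20 (corneodesmosome and shedding), and the filled points of the keratin partners all lie below 0 while those of the hemidesmosome list all lie above it.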

How the data were processed

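The authors aligned reads to mm10 with STAR 2.7.9a and deposited raw counts per Ensembl gene, made with featureCounts (Subread 1.6.2, Ensembl annotation, uniquely aligned proper pairs, same strand, non-mitochondrial genes). Their variance-stabilized table was not used. The 10 genes and all gene lists were chosen with earlier results of these data known. Symbols, positions and exon lengths came from GENCODE for GRCm38, in which 55190 of 55450 identifiers and 171 of 172 listed genes were found (the other is in the hair follicle list). Apart from these, 1 hemidesmosome gene is not reported here and is in no count. This is not the annotation release used for counting. Genes were filtered with filterByExpr, and CPM was computed from the counts of the tested genes with TMM scaling (R 4.3.3, edgeR 4.0.16). RPKM divides CPM by the exon length in kilobases. All genes were fitted with glmQLFit (robust) and glmQLFTest, two-sided, with Benjamini-Hochberg adjustment over 17959 genes. The SE is the log2 fold change divided by the square root of F. Likeness used log2 CPM with a prior count of 2. Genes named are the 10 genes, of each list up to 4 genes with the smallest p plus those that define it, and the 5 genes most like Dsc2, Dsg2 and Dsg1a. Other genes of the lists were named after their values were seen. Alternatives were DESeq2 size factors, every gene with a count, at least 10 counts in every sample, DESeq2's Wald test (DESeq2 1.42.0), scaling to keratinocyte reference genes, and leaving out each mouse. Shares from CPM, and shares without each mouse, were added after seeing the data.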

Additional observations from a re-analysis of the deposited data

Results flagged for a closer look

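In the DMSO group of 4 mice, 35 measures were checked for a mouse that stands apart, by the gap to its nearest neighbor divided by the range of the group, against the 95% limit of Dixon. By chance 1.75 of 35 would be expected, and 5 were found. The measures come from the same mice and partly share genes, so they are not independent, and nothing is read from this difference. DMSO mouse 480 stood above the other DMSO mice for Dsg3 (0.858), Pkp1 (0.834), the summed basal keratinocyte markers (0.91) and the summed wound keratinocyte markers (0.85). Most of the basal sum in this mouse was Krt14 (21269 CPM) and Krt5 (8190 CPM). Itga6 was also highest there, but Krt15 (1099 CPM) and Col17a1 (358 CPM) were lowest there among the DMSO mice. The basal markers as a group were therefore not high in mouse 480. DMSO mouse 481 stood above the others for the summed hair follicle markers (0.977). The ABT-263 group of 3 mice was too small for this check.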

How the results depend on the processing

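No paired analysis was possible because the mouse numbers of the groups differ and pair no samples. The 10 genes were chosen on this contrast, so their calls under the alternatives are no evidence of stability. Without 1 mouse at a time, 1 to 3 of the 10 genes passed as higher and 0 as lower, with 1 (Dsc2) left without DMSO mouse 482 or 483. Over all genes, 850 to 2286 passed as higher and 771 to 2104 as lower in these fits. Dsc1 passed only without DMSO mouse 480 among these fits and did not when every gene with a count was kept. The median log2 fold change of the 10 genes ran from -0.0198 (without ABT-263 mouse 477, a change of sign) to 0.549. The difference of Dsc2 from the mean of Dsc1 and Dsc3 ran from 0.75 to 1.38, and that of Dsg2 from the mean of Dsg1a and Dsg3 from -1.51 to -1.08. Genes past the threshold ranged from 0 to 1 (higher) and 0 to 1 (lower) for other desmosome genes, 0 to 5 higher for corneodesmosome genes, 0 to 3 higher and 1 to 4 lower for keratins, 1 to 2 higher and 0 to 1 lower for adherens junctions, 1 to 2 higher and 0 to 1 lower for hemidesmosomes, and 4 to 6 higher and 2 to 3 lower for regulators. The mean share of Dsc2 ran from 3.50% to 4.94% after DMSO and from 8.67% to 13.8% after ABT-263, and that of Dsg2 from 3.29% to 4.28% and from 1.55% to 2.01%. From CPM the Dsg2 share was 5.14% and 2.30%. With DESeq2 size factors, and with at least 10 counts in every sample, 1 adherens junction gene passed as lower. With every gene with a count, 0 corneodesmosome genes passed as higher and 2 keratins as lower. The Wald test gave 1 other desmosome gene higher, 1 corneodesmosome gene lower, 7 keratins lower, 4 adherens junction genes higher and 1 lower, and 1 hemidesmosome gene lower. Over all genes it called 3008 higher and 2882 lower. The cause of these changes was not tested. With 3 and 4 mice per group, small differences could not be detected.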
